A study of Mus musculus with 46 samples.

Results

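The 7 apolipoprotein genes Apoa1, Apoa2, Apoa4, Apob, Apoc2, Apoe and Apom were followed across 46 RNA-seq libraries of mouse extended pluripotent stem cells (EPSC) and the endoderm and epiblast cells made from them. These genes were picked by gene symbol out of 21812 genes in a table (21793 in the EPSC table), and all 7 were listed in all 7 count tables. The libraries form 19 groups, with 2 libraries per group unless given. One table holds EPSC. One more holds EPSC grown in medium that induces primitive endoderm (PrE) and separated into CD140+ cells (PrE-E) and CD140- cells (EPI-E). Another holds the VE and EPI portions of embryoids built from EPSC plus GBL-1, separated with pronase E at 5 days (6 libraries each). The next table follows EPS and PrE-induced cultures (PrEdiff) through 0, 1, 2 and 3 h in actinomycin D, which stops transcription. The last 3 tables hold PrE-induced cultures labelled Virma WT and Virma_cKO, Mettl3 WT and Mettl3_cKO, and siNC and siIgf2bp3. The labels name no strain, no Cre driver, no clone and no separate cultures for the replicates, so p-values cover only the spread among these libraries, part of which may be technical.

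Apolipoproteins coat lipid particles and carry cholesterol and triglyceride between tissues. Apob encodes the large structural protein around which the liver, gut and yolk sac build triglyceride-rich particles. Apoa1, Apoa2 and Apoa4 encode proteins of high-density lipoprotein and of gut and liver particles, and Apoe and Apoc2 encode exchangeable proteins that direct receptor uptake and activate lipoprotein lipase. Apom encodes a plasma carrier of sphingosine-1-phosphate. In the early mouse embryo, visceral endoderm (VE), the PrE derivative that surrounds the epiblast, secretes many of the same plasma proteins as the later liver. Apoe is also made by many other cells, macrophages and fibroblasts among them.

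Total counts ran from 6854433 to 22280769 per library. Levels are counts, or counts scaled to a common library size with TMM factors within a table (CPM), as mean ± SD. Changes are log2 from edgeR, and "rose" or "fell" means an adjusted p under 0.05. The test gives no SE, so the SE printed was worked back from the change and its test statistic or p-value. It therefore adds nothing to the p-value. Of the 12 PrE markers, 12 rose in PrE-E and 12 in embryoid VE. Of the 12 epiblast markers, 9 fell and 2 (Zfp42 and Klf4) rose in PrE-E, and 10 fell and 1 (Klf4) rose in embryoid VE. Parietal endoderm markers also rose, 9 of 11 tested in PrE-E and 6 of 9 in embryoid VE, while Vim and Fstl1 fell in both. The VE marker Trf fell in both. The 15 VE markers summed to 1.29% to 1.34% of counts in PrE-E, 0.0842% to 0.0889% in EPI-E, 0.952% to 0.989% in embryoid VE and 0.0354% to 0.0464% in embryoid EPI. The sum in PrE-E was carried by Lrp2 (5828 CPM), Cubn (5343) and Rhox5 (2018), the first 2 also PrE markers, while Ttr (6.05 against 714) and Rbp4 (0.779 against 85.0) were far below embryoid VE. Afp, a plasma protein of mature VE, was at 0 counts in both PrE-E libraries and at 766 to 893 in embryoid VE. Alb, the main plasma protein of hepatocytes, was at 0 counts in all 6 embryoid VE libraries, but at 0 and 42 counts in PrE-E replicates 1 and 2. Cyp3a11, another hepatocyte gene, had 0 and 6 there. Other hepatocyte genes were counted in VE. Fgb had 93 to 157 counts in embryoid VE and 16 to 37 in PrE-E. Fgb was called as higher in both, but had 0 to 1 counts in embryoid EPI and 0 in both EPI-E libraries. It thus passed the low-count filter through VE or PrE-E alone, which all but fixed its sign, and no fold is given. Ass1 rose in embryoid VE (1.06 ± 0.08) but not in PrE-E (-0.06 ± 0.22). The 12 macrophage markers summed to at most 0.00333% of counts in any group, and Ptprc was at 0 in all 4 sorted libraries. In these bulk samples, fewer cells of a type and less RNA per cell cannot be told apart.

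The promoters of the genes that rose most in embryoid VE, and of Apoa2, which rose least there, are shown so that their sequences can be compared. All 7 genes matched RefSeq's promoter table (GRCm38.p6), with 10 start sites. Each line gives the 250 bases before a start, 5′ to 3′ on the gene's strand. Capitals mark matches on either strand to 6 motifs, which may overlap: TATAAA, the core promoter box, TGTTTAC, known from FOXA factors, AGGTCA, from nuclear receptors, GTTAAT, from HNF1, CAAAGTC, from HNF4, and AGATAA, from blood and endoderm GATA factors. Apoa1 lies at chr9:46228380-46228629, plus strand, and Apoa4 at chr9:46240594-46240843, plus strand. Apob lies at chr12:7977427-7977676, plus strand, and Apom at chr17:35131802-35132051, minus strand. Apoa2 has a first entry at chr1:171224804-171225053 and a second at chr1:171221314-171221563, both on the plus strand.
Apoa1: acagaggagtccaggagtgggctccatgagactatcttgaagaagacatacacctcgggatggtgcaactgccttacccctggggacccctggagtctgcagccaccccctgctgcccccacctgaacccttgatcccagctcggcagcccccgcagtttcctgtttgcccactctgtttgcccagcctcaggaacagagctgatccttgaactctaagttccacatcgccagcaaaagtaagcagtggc
Apoa4: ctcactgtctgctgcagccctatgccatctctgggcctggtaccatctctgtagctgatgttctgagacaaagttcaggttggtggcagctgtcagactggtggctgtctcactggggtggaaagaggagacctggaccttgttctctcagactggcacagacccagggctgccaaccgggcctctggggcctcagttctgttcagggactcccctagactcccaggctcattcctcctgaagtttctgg
Apob: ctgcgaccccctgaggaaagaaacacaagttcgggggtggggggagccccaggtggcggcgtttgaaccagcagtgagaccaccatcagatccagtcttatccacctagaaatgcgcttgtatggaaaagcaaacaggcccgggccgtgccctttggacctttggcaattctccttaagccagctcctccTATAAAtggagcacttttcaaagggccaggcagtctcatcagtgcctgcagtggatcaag
Apom: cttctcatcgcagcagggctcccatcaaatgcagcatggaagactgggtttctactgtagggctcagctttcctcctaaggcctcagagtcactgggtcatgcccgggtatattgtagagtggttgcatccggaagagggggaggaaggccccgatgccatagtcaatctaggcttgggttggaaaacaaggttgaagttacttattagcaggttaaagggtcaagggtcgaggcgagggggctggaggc
Apoa2 first entry: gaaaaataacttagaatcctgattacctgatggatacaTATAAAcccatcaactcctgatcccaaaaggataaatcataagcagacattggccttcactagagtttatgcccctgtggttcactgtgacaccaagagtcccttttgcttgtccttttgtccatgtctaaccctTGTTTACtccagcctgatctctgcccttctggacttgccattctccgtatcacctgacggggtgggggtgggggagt
Apoa2 second entry: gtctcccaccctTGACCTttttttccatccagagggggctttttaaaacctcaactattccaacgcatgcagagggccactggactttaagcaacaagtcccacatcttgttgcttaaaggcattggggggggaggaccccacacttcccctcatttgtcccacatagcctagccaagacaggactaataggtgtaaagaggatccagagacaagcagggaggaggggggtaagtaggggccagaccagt
The Apob window holds TATAAA starting at -60 from the start site. The first Apoa2 window holds TATAAA at -212 and the FOXA letters at -77, and the second holds AGGTCA at -238 on the minus strand. The windows of Apoa1, Apoa4 and Apom hold none of the 6 motifs in this exact form. Over the 32851 promoters of the same table and length, 12.4% held TATAAA, 3.17% TGTTTAC, 14% AGGTCA, 6.43% GTTAAT, 3.84% CAAAGTC and 9.99% AGATAA. A match is a description of letters, and draws nothing about a factor's binding.

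**Figure D1:**
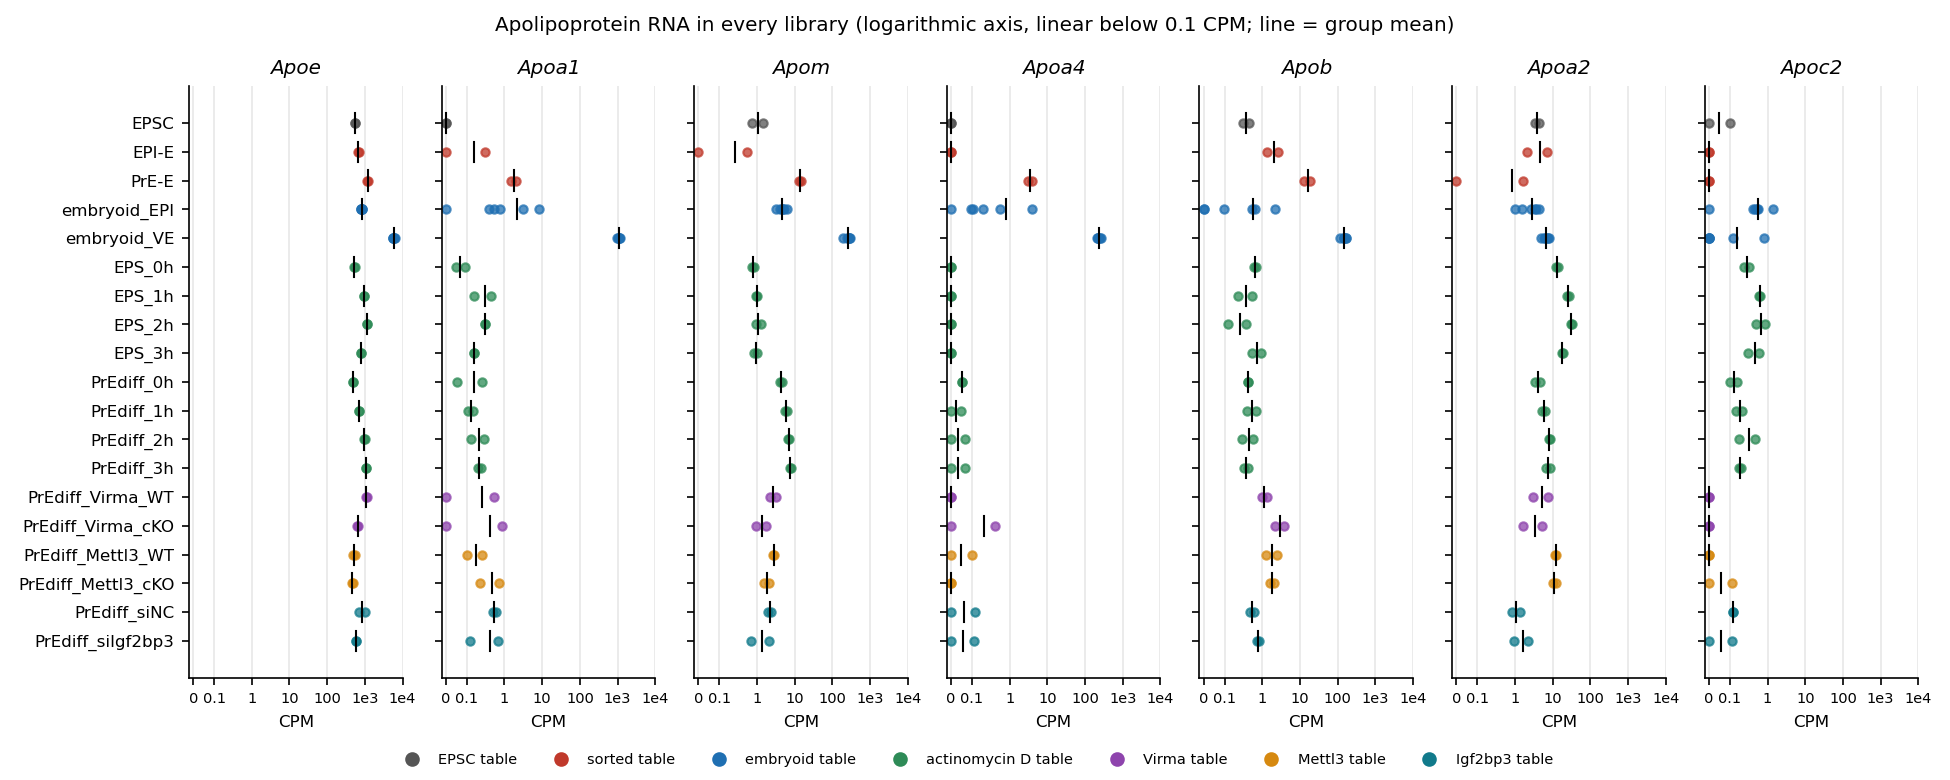
CPM of each gene (x axis, logarithmic, linear below 0.1 CPM) in every library, by group (y axis); points are libraries, black lines are group means and colours are count tables. Embryoid VE holds the highest mean of Apoe (5816), Apoa1 (1082), Apom (260), Apoa4 (230) and Apob (150), whereas Apoa2 is highest in EPS at 2 h (31.6) and Apoc2 is at most 1.43 CPM.

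In PrE-E, 5 of the 6 genes tested were higher than in EPI-E, and 0 were lower. Of all 12423 genes tested, 57.7% were called, 28.3% as higher and 29.5% as lower, so a high call rate was the background. The median change of the 6 was 3.26, the same with Apoa4 at its lower bound, against -0.03 over all genes. Apoa1, Apoa4 and Apom passed the low-count filter through PrE-E alone, which all but fixed the sign of their changes. The count and the median are therefore descriptions. Apoe, Apob, Apom, Apoa4 and Apoa1 rose, at levels that differed widely between genes.

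Apoe had 15138 and 18599 counts in PrE-E and 9845 and 8903 in EPI-E. Both PrE-E libraries lay above both EPI-E libraries, at 1177 ± 43.6 against 667 ± 16.4 CPM (0.83 ± 0.05, adjusted p = 1.3e-08). EPI-E was thus not devoid of Apoe. Apob had 172 and 290 counts in PrE-E and 40 and 18 in EPI-E (2.98 ± 0.45, adjusted p = 9.16e-05). Apom had 173 and 229 counts in PrE-E and 0 and 7 in EPI-E (5.75 ± 0.78, adjusted p = 3.6e-05). The Apom change was 4.70 without EPI-E replicate 1, and without replicate 2 the EPI-E library left had 0 counts. EPI-E kept low but countable Apob.

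Apoa4 had 40 and 61 counts in PrE-E and 0 and 0 in EPI-E, which is at least 16.3-fold higher against a floor of 3 counts per library (adjusted p = 0.000983). Apoa1 had 20 and 32 counts in PrE-E and 0 and 4 in EPI-E, a change of 3.54 ± 1.43 (adjusted p = 0.0494). The Apoa1 call was lost with RLE factors (adjusted p = 0.0516), with library totals (0.0545), without the filter (0.0788), and when any 1 of the 4 libraries was left out (0.0569 to 0.352). Apoa1 and Apoa4 were thus counted in PrE-E too, at 1.80 ± 0.399 and 3.5 ± 0.66 CPM. PrE-E replicate 1, with 0 Alb counts, had 20 of Apoa1 and 40 of Apoa4, and replicate 2, with 42 of Alb, had 32 and 61.

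Apoa2 had 0 and 26 counts in PrE-E and 105 and 28 in EPI-E, the only tested member with a negative estimate (-2.40 ± 1.16, adjusted p = 0.0963). The 2 groups came close, at 1.69 CPM in PrE-E replicate 2 and 2.13 in EPI-E replicate 2. The 26 counts in PrE-E were in the library that held Alb, whose part in the Apoa2 result was not tested. Apoa2 passed without PrE-E replicate 2 (adjusted p = 0.000292), without EPI-E replicate 2 (0.0081) and without the filter (0.0137), but not without PrE-E replicate 1 (0.166) or EPI-E replicate 1 (0.587). Leaving out a library leaves an arm of 1, assumed to vary like the other group, and the PrE-E library that remains without replicate 2 had 0 counts. Apoc2 was at 0 counts in all 4 libraries and was not tested, and 3 counts would be 0.211 CPM in PrE-E and 0.214 in EPI-E. The 12 feeder fibroblast markers summed to 0.0343% to 0.0358% of counts in PrE-E and 0.0176% to 0.0183% in EPI-E. Their part in the Apoe result was not tested. In the embryoid table, feeder markers were at most 0.00306% of counts.

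In embryoid VE all 6 genes tested rose over embryoid EPI. Of all 11254 genes tested, 72.5% were called, 34.5% as higher and 38% as lower. The median change of the 6 was 6.95, against -0.05 over all genes. Apoa1, Apoa4 and Apob passed the low-count filter through VE alone, which all but fixed the sign of their changes. The count and the median are therefore descriptions.

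Apoa1 had 7044 to 9456 counts in VE (median CPM 1094) and 0 to 80 in EPI (median 0.636). The 2 groups lay far apart, at 1082 ± 57 and 2.16 ± 3.16 CPM (SD, n = 6), a change of 9.07 ± 0.50 (adjusted p = 1.71e-08). Apoa4 had 1496 to 2198 counts in VE and 0 to 37 in EPI (8.23 ± 0.46, adjusted p = 1.69e-09). Apob had 961 to 1258 counts in VE and 0 to 21 in EPI (8.11 ± 0.38, adjusted p = 7.31e-13). VE replicate 6 was the lowest for Apob, at 114 CPM against 150 to 168 in the other 5 libraries.

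Apom had 1367 to 2350 counts in VE and 33 to 61 in EPI (5.80 ± 0.14, adjusted p = 4.98e-19). Apoe had 40185 to 50975 counts in VE and 7025 to 12964 in EPI. At 5816 ± 257 against 816 ± 42.6 CPM its change was the second smallest of the 6 (2.83 ± 0.04, adjusted p = 2.92e-22), and every EPI library had at least 771 CPM. The 7 genes together made up 0.702% to 0.767% of all counts in VE and 0.0805% to 0.0905% in EPI, most of it Apoe.

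Apoa2 rose least in VE, with 34 to 64 counts against 10 to 51 in EPI (1.24 ± 0.40, adjusted p = 0.00892). Its CPM ranges of 4.78 to 7.80 and 1.03 to 4.35 lay close without overlapping. Apoc2 had 0 to 6 counts in VE and 0 to 13 in EPI and was not tested.

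EPI replicate 2 had the most Apoa1 (80 counts), Apoa4 (37) and Apob (21) of the 6 EPI libraries. It also had the most counts of Ttr (89), a thyroxine carrier of VE, and of Afp (15). Its VE markers summed to 0.0464% of counts, against 0.0354% to 0.0397% in the other 5. All 6 genes were still called when it was left out, and the changes were then 10.32 for Apoa1, 10.16 for Apoa4 and 9.28 for Apob.

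**Figure D2:**
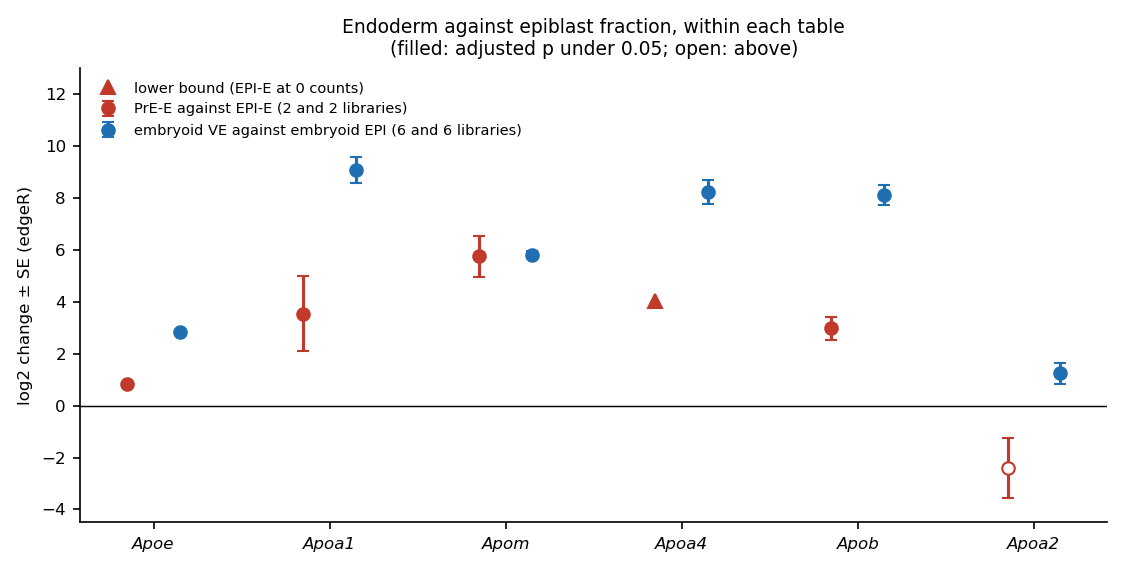
Log2 change with its SE (y axis) of the 6 tested genes in PrE-E against EPI-E (red) and embryoid VE against embryoid EPI (blue); filled points pass the adjusted p of 0.05, and the triangle is a lower bound for Apoa4. The points of Apoe and Apob are higher in the embryoid table than in the sorted one (2.83 against 0.83 and 8.11 against 2.98), and Apoa2 alone lies below 0, in the sorted cells (-2.40, open).

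The embryoid and sorted changes were then compared in 1 fit, where 20.6% of 13835 genes were called, 11.3% as higher in the embryoid and 9.32% as lower. Of the 6 genes, 3 passed with a positive difference, embryoid minus sorted, and 0 with a negative one. Apob differed by 5.30 ± 0.79 (adjusted p = 6.81e-05), Apoe by 2.17 ± 0.08 (adjusted p = 7.37e-15) and Apoa2 by 3.81 ± 1.21 (adjusted p = 0.0266). For Apoa2 the 2 changes had opposite signs, 1.24 in the embryoid and -2.40, not called, in the sorted cells. The Apoa2 difference was lost without PrE-E replicate 1 (adjusted p = 0.118) or EPI-E replicate 1 (0.21).

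Apom did not pass (0.21 ± 0.96, adjusted p = 0.941). For Apoa4, with EPI-E at 0 counts in both libraries, the sorted change is only a bound and no difference of changes is given. Apoa1 differed by 5.65 ± 4.62 (adjusted p = 0.455), and DESeq2 called it (0.0174). Set side by side across tables, where table and group cannot be told apart, mean CPM in embryoid VE was 602 times that in PrE-E for Apoa1. That ratio was 65.9 for Apoa4, 18.6 for Apom, 9.4 for Apob, 7.85 for Apoa2 and 4.94 for Apoe. The same ratio between embryoid EPI and EPI-E was 17.5 for Apom, 14.2 for Apoa1, 1.22 for Apoe, 0.607 for Apoa2 and 0.284 for Apob. EPI-E held only 4 counts of Apoa1 and 7 of Apom. Of the 124 Apoa1 counts in embryoid EPI, 80 were in replicate 2. Apoa4 was at 0.792 CPM in embryoid EPI and 0 in EPI-E, so it has no ratio. Apom, Apoa1, Apoa4 and Apoe thus had higher means in both portions of the embryoid, and Apob and Apoa2 in VE but not in EPI.

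Per kilobase of annotated exon (GENCODE M21), embryoid VE had 2720 ± 120 CPM of Apoe and 876 ± 46.1 of Apoa1. Apom followed at 257 ± 35.8 and Apoa4 at 127 ± 10.8. Apoa2 (12.3 ± 2.15) and Apob (10.7 ± 1.38) came last among the 6 and did not differ beyond their spread. Apob has 13934 exonic bases and Apoa2 has 537. In PrE-E the order after Apoe (551 ± 20.4) was Apom (13.8 ± 1.24), Apoa4 (1.93 ± 0.363), Apoa2 (1.57 ± 2.22), Apoa1 (1.45 ± 0.323) and Apob (1.14 ± 0.295). Among the last 4, neighbours in this order did not differ beyond their spread, while Apoa4 and Apob did.

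Across the 19 groups Apoe was counted in every library, from 441 to 6191 CPM. Its mean was highest in embryoid VE, and next in PrE-E (1177) and EPS at 2 h (1158), whose library ranges overlapped. It was lowest in the cultures labelled Mettl3_cKO (456). Apoa1 was at 3 counts or fewer in 20 of 46 libraries and Apoa4 in 35, and Apoa4 was at 0 in 24. Outside the PrE-E, embryoid and EPI-E groups, Apoa1 stayed at 0 to 10 counts and Apoa4 at 0 to 5.

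Apoa2 had another order. Its 4 highest groups were EPS at 2 h (31.6 ± 0.52 CPM), 1 h (26.0 ± 2.73), 3 h (18.3 ± 0.568) and 0 h (12.9 ± 1.28), and PrE-E was the lowest (0.844 ± 1.19). The EPSC libraries of the other table had 3.83 ± 0.681 CPM. Unperturbed PrE-induced cultures also differed widely between tables. Per kilobase they had 22.3 ± 1.03 CPM (Mettl3 WT), 9.78 ± 6.03 (Virma WT), 7.67 ± 1.61 (PrEdiff at 0 h) and 2.03 ± 0.666 (siNC). In this order across groups, and in that of Apoe, table and group cannot be told apart. Embryoid VE, at 6.63 ± 1.16 CPM, was ninth, and its range overlapped that of the next lower group. In the RefSeq gene table Apoa2 overlaps Tomm40l, which encodes a mitochondrial import protein. Tomm40l was at 7.53 ± 2.90 CPM in embryoid VE and 27.0 ± 3.75 in embryoid EPI, opposite in order to Apoa2. With the strand setting not given, reads of the 2 genes cannot be told apart.

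Apoc2 had at most 14 counts in any library and was at 0 in 18 of 46. In the RefSeq gene table it overlaps the locus Gm44805, which no table lists, so its low counts are uncertain. Its neighbours are Apoe, Apoc1 and Apoc4. In embryoid VE, Apoc1, which encodes a small inhibitor of lipoprotein uptake, had 71.5 ± 4.10 CPM against 21.6 ± 2.60 in EPI and rose by 1.72 ± 0.11. Apoc4, picked for its position after its values were seen, was at 0 counts in all 12 embryoid libraries.

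Apoa1 and Apoa4 also share a cluster, with Apoc3 and Apoa5. Apoc3, an inhibitor of lipoprotein lipase, had 18 to 40 counts in the 6 VE libraries and 0 in all 6 EPI libraries. That is at least 12.2-fold higher against a floor of 3 counts per library (adjusted p = 2.16e-06). Apoc3 too passed the low-count filter through VE alone, which all but fixed the sign of its change. It was far below its neighbours, at 3.58 ± 1.07 CPM against 1082 and 230. Apoa5, also picked for its position after its values were seen, had 0 to 6 counts in VE.

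Over group means of log2(CPM + 1), Apoa1 and Apoa4 were alike (Pearson r = 0.986 over 19 groups). Apob, Apoe and Apom correlated with Apoa1 at 0.888, 0.86 and 0.871. Apoa2 correlated with these 5 genes at -0.211 to 0.0341. These are descriptions, since groups share tables and depth and 1 group, embryoid VE, holds the highest value of 5 genes. Among 10946 other genes, those most like Apoa1 included Hsd17b2 (r = 0.996), a steroid dehydrogenase, and Car7 (0.992), a carbonic anhydrase. Those most like Apoa4 were Ifi27l2b (0.998), Hsd17b2 (0.993) and Ttr (0.992). Apob was most like Irs4 (0.96), Muc13 (0.955) and Ppm1h (0.95). Genes most like Apom included Vmp1 (0.967) and Tmem9b (0.966), and Apoe was most like Atp6v1e1 (0.912), a subunit of the vacuolar proton pump. Apoa2 was most like Ap4s1 and Dph3 (0.874 each), followed by Taf11 (0.831).

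Counts for lists of related genes are read against the shares of all genes called, 28.3% higher and 29.5% lower in PrE-E and 34.5% and 38% in embryoid VE. Of 20 genes of lipoprotein assembly and secretion, 12 rose and 2 fell of 17 tested in PrE-E (median 1.44), and 14 rose and 1 fell of 18 in embryoid VE (median 1.71). P4hb, the disulfide isomerase that is the partner of the triglyceride transfer protein, rose by 2.87 ± 0.06 and 1.72 ± 0.05. Mttp, the transfer protein that loads lipid onto Apob and chosen after its values were seen, rose by 4.07 ± 0.24 to 95.2 ± 17.2 CPM in PrE-E. In embryoid VE it rose by 4.17 ± 0.14 to 259 ± 24.5 CPM. Apobec1, the enzyme that edits Apob mRNA and also chosen afterwards, had 0 counts in both PrE-E libraries against 29 and 54 in EPI-E. That is at least 13.8-fold lower against a floor of 3 counts per library, and in embryoid VE it fell to 0 to 2 counts against 32 to 123 in EPI.

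Of 18 lipoprotein receptors and endocytic partners, 10 rose and 3 fell of 15 tested in PrE-E (median 1.71), and 9 rose and 2 fell of 16 in embryoid VE (median 1.10). Cubn, the cubilin receptor that binds Apoa1, rose by 10.49 ± 0.07 and 5.33 ± 0.08. Lrp2, its partner megalin, rose by 4.64 ± 0.05 and 5.14 ± 0.09. Cubn thus reached 5343 ± 139 CPM in PrE-E, where Apoa1 was at 1.80.

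Of 22 hepatocyte and endoderm transcription factors, 10 rose and 2 fell of 16 tested in PrE-E, and 7 rose and 2 fell of 11 in embryoid VE, where 72.5% of all genes were called. Hnf4a, a nuclear receptor that drives apolipoprotein genes in liver, rose by 7.75 ± 0.55 in PrE-E and 7.27 ± 0.39 in embryoid VE. It reached 24.7 ± 7.76 and 57.1 ± 5.2 CPM, and had 1 to 2 counts in EPI-E and 0 to 12 in embryoid EPI. Of 24 other apolipoproteins and lipoprotein-bound proteins, 2 rose and 0 fell of 7 tested in PrE-E, namely Apol8 and Clu, and 3 rose and 4 fell of 8 in embryoid VE. Clu, a chaperone of plasma and of lipoprotein, rose by 2.49 ± 0.67 and 1.15 ± 0.15. A list of lipid efflux and plasma remodelling genes had members called in both directions in both comparisons. Npc2 rose by 1.78 ± 0.19 in PrE-E and 1.48 ± 0.06 in embryoid VE. Angptl4, chosen after its values were seen, fell by 4.30 ± 0.55 and 4.83 ± 0.43.

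In whole PrE-induced cultures against EPS, both at 0 h of actinomycin D, 1 member rose and 2 fell of 5 tested, where 80.5% of 14127 genes were called, 37.6% as higher and 42.9% as lower. Replicates of the actinomycin D table varied 1.19 to 1.3 times as much as counting alone would give, the least of the 7 tables. That multiple was 6.17 to 20 in the embryoid table and 7.47 to 9.9 in the sorted one. The small p-values here thus cover little more than counting noise, and whether the replicates were separate cultures is not given. Apom had 77 and 89 counts in PrEdiff and 17 and 16 in EPS, and rose by 2.50 ± 0.24 (adjusted p = 2.28e-22). Apoa2 had 66 and 91 counts in PrEdiff and 290 and 261 in EPS, and fell by 1.63 ± 0.12 (adjusted p = 4.5e-31). Apoe fell by 0.14 ± 0.02 (adjusted p = 3.12e-09), but its change was 0.04 with library totals and -0.03 with ribosomal protein scaling (adjusted p = 0.123 and 0.235). Apob had 8 and 8 counts against 14 and 13 (-0.57 ± 0.47, adjusted p = 0.26), and Apoc2 was at -1.04 ± 0.76 (adjusted p = 0.193). Clu, in the list of other apolipoproteins, rose by 5.85 ± 0.05, from 4.57 ± 0.049 to 263 ± 4.72 CPM, and Apoc1 by 1.19 ± 0.06. Tomm40l also was lower in PrEdiff, at 14.4 ± 0.257 against 25.3 ± 0.649 CPM, in the same order as Apoa2.

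**Figure D3:**
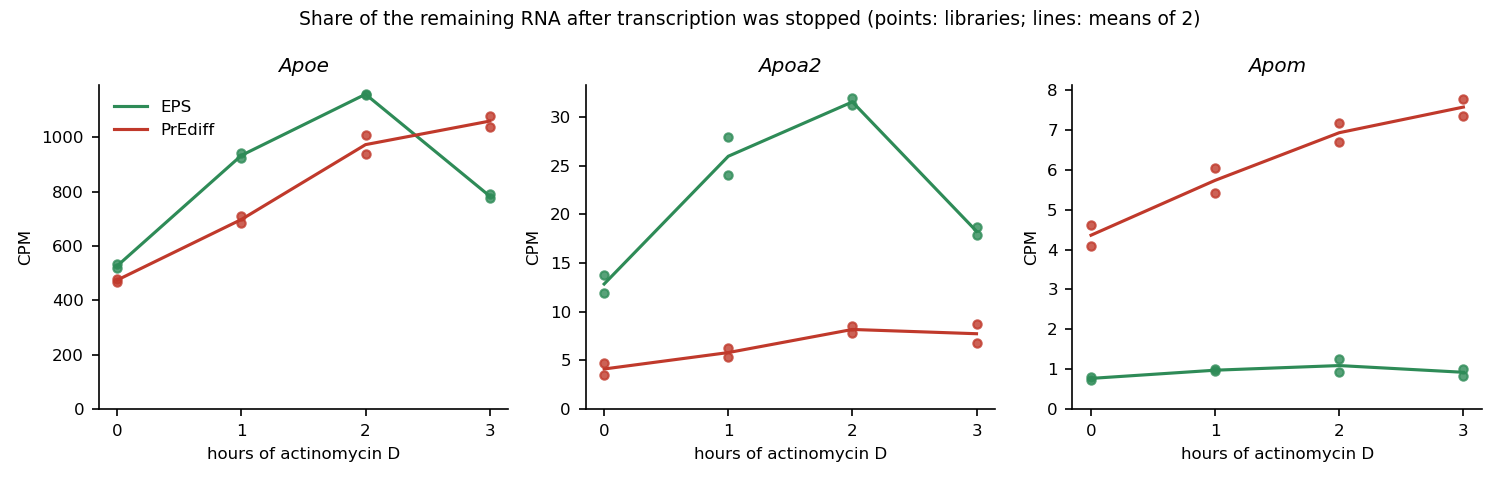
CPM of Apoe, Apoa2 and Apom (y axes, from 0) against hours of actinomycin D (x axis); points are libraries, lines join the means of 2, green is EPS and red is PrEdiff. In EPS, mean Apoe and Apoa2 are highest at 2 h (1158 and 31.6) and lower at 3 h (784 and 18.3), while in PrEdiff mean Apoe and Apom are highest at 3 h (1059 and 7.58).

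With transcription stopped, CPM compares a transcript with the average one, so slopes are relative to it. In PrEdiff 2 of 5 members tested rose per hour, where 36.9% of 14127 genes were called, 20.3% as higher. Apoe had 469 and 480 CPM at 0 h, 686 and 709 at 1 h, 937 and 1008 at 2 h, and 1039 and 1079 at 3 h. Its slope was 0.39 ± 0.09 per hour (adjusted p = 0.00404). Apom went from 4.09 and 4.63 CPM at 0 h to 7.36 and 7.79 at 3 h (0.26 ± 0.05 per hour, adjusted p = 0.00104). With ribosomal protein scaling the slopes were 0.01 for Apoe and -0.11 for Apom, and 0 were called. Apoa2 was at 0.32 ± 0.13 (adjusted p = 0.0739), and it passed with DESeq2 (0.0446) and without 3 h (0.45, 0.00162).

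In EPS 0 of 5 members were called, where 36.7% of genes were. At an unadjusted p under 0.05 there were 0, and DESeq2 called 0. Apoe had 519 and 535 CPM at 0 h, 925 and 942 at 1 h, 1157 and 1159 at 2 h, and 775 and 793 at 3 h (0.21 ± 0.10 per hour, adjusted p = 0.109). Only from 2 h to 3 h was Apoe lower than at the time before. Without 3 h, 4 members were called: Apoe (0.61, adjusted p = 3.14e-09), Apoa2 (0.67, 3.16e-07) and Apoc2 (0.63, 0.0195) rose and Apob (-0.64, 0.048) fell, on few counts for the last 2. The difference of slopes, PrEdiff minus EPS, was called for 0 of 5 members (0 at an unadjusted p under 0.05, 0 by DESeq2), where 1.27% of genes were called, 1.13% as higher. For Apoe it was 0.19 ± 0.13, turning to -0.13 without 3 h.

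In the perturbed cultures the targeted gene was read first. Virma, a scaffold of the m6A RNA methylation complex, had 1064 and 1260 counts in WT and 808 and 648 in the libraries labelled Virma_cKO (-0.82 ± 0.12, adjusted p = 1.12e-06). Mettl3, its catalytic subunit, had 453 and 355 counts in WT and 395 and 318 in the libraries labelled Mettl3_cKO (-0.02 ± 0.11, adjusted p = 0.978). Igf2bp3, a reader that binds m6A RNA, had 817 and 932 counts in siNC and 953 and 961 in the libraries labelled siIgf2bp3 (0.11 ± 0.11, adjusted p = 0.577).

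The column names of the Virma table carry the word input, whose meaning is not given in the sources used here. In the libraries labelled Virma_cKO, Apoe fell, and it was the only member called of 4 tested, where 33.2% of 13113 genes were called, 18% as lower. Apoe had 11076 and 11951 counts in WT and 7922 and 7560 in cKO, or 1077 ± 52.0 and 648 ± 19 CPM (-0.73 ± 0.06, adjusted p = 1.37e-11). The groups did not overlap. With ribosomal protein scaling the Apoe change was -0.32 (adjusted p = 0.000145). Apob had 13 and 11 counts in WT and 44 and 26 in cKO (1.37 ± 0.84, adjusted p = 0.226). Apom (-0.99 ± 0.85, adjusted p = 0.404) and Apoa2 (-0.60 ± 0.57, adjusted p = 0.466) did not pass either. The 12 PrE markers summed to 0.658% to 0.682% of counts in WT and 0.0762% to 0.0773% in cKO, and all 12 fell. Feeder fibroblast markers summed to 0.0895% to 0.0900% in WT and 0.245% to 0.255% in cKO, and 11 of 12 rose. The part of these shifts in the Apoe result was not tested.

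**Figure D4:**
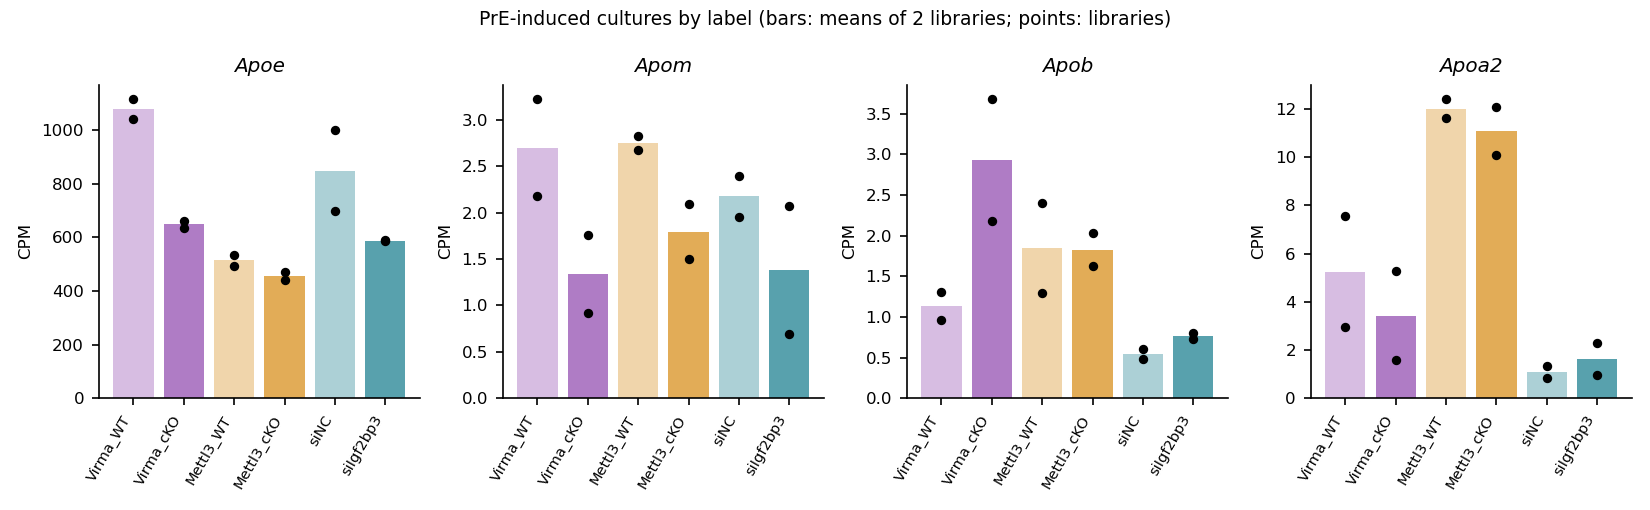
CPM of Apoe, Apom, Apob and Apoa2 (y axes, from 0) in the perturbed PrE-induced cultures; bars are means of 2 libraries and points are libraries, with purple for Virma, orange for Mettl3 and teal for Igf2bp3. Apoe is lower in both libraries labelled Virma_cKO (634 and 661) than in both WT libraries (1040 and 1114), and the siNC replicates are far apart (998 and 698).

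In the libraries labelled Mettl3_cKO 0 of 4 members were called (1 at an unadjusted p under 0.05, 0 by DESeq2), where 3.95% of 13115 genes were, 2.51% as higher. Apoe had 6456 and 4983 counts in WT and 4997 and 4067 in cKO (-0.17 ± 0.06, adjusted p = 0.139), and with ribosomal protein scaling it passed at -0.22 (0.0498). PrE markers there summed to 1.05% to 1.07% of counts in WT and 0.749% to 0.776% in cKO, and feeder markers to 0.228% to 0.243% and 0.332% to 0.348%. In the libraries labelled siIgf2bp3 0 of 3 members were called (1 at an unadjusted p under 0.05, 1 by DESeq2), where 7.32% of 12918 genes were, 2.79% as higher and 4.52% as lower. Apoe had 8334 and 5711 counts in siNC and 4808 and 5125 in siIgf2bp3 (-0.52 ± 0.15, adjusted p = 0.0552). The 2 siNC libraries stood further apart than the group means did. Apoe passed under 7 other settings (adjusted p = 0.00372 to 0.0425). Its change was -0.25 without siNC replicate 1 and -0.76 without siNC replicate 2. Each of these fits leaves 1 siNC library and takes the spread from the siIgf2bp3 pair alone, so it cannot decide the call. Of the PrE markers 12 of 12 fell there, from a sum of 1.16% to 1.17% of counts to 0.473% to 0.480%.

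The Apoe change in the libraries labelled Virma_cKO minus that in those labelled Mettl3_cKO was -0.53 ± 0.09 (adjusted p = 0.000396, where 19.7% of 13872 genes were called, 8.74% as higher and 10.9% as lower). With ribosomal protein scaling the difference was -0.10 (adjusted p = 0.372), a scaling under which the median of all genes in the Virma table was 0.43 and not 0.02. Against siIgf2bp3 0 of 4 members differed (0 at an unadjusted p under 0.05, 0 by DESeq2), where 23.3% of 13902 genes did, 9.29% as higher and 14% as lower. Apoe was at -0.21 ± 0.16 (adjusted p = 0.388), with -0.50 when siNC replicate 1 was left out and 0.039 when siNC replicate 2 was.

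Among the 18 lipoprotein receptors and partners, Cubn, Lrp2 and Dab2 are also in the PrE marker list. In the libraries labelled Virma_cKO, where 18% of all genes fell, 9 of 17 tested fell and 1 rose, with Cubn at -4.75 ± 0.08, Lrp2 at -4.54 ± 0.08 and Dab2, an endocytic adaptor, at -4.09 ± 0.09. In those labelled Mettl3_cKO, where 1.44% of all genes fell, 5 of 16 fell and 1 rose, and Lrp2 fell by 0.72 ± 0.05. In those labelled siIgf2bp3, where 4.52% of all genes fell, 8 of 17 fell and 0 rose, and Amn, the anchor of cubilin, fell by 1.90 ± 0.18. The assembly list had 6 falling and 1 rising of 18 in the libraries labelled Virma_cKO, 0 falling and 1 rising of 19 in those labelled Mettl3_cKO, and 6 falling and 0 rising of 19 in those labelled siIgf2bp3. P4hb fell by 0.67 ± 0.06 in the first and 0.70 ± 0.09 in the last.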

How the data were processed

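RNA-seq of 46 mouse libraries was used. Per the submitters' processing notes, the tools were STAR 2.7.11b, Subread, DESeq2, FastQC 0.12.1 and Trim Galore, with the mm39 build. The annotation, strand setting and kit of each library are not given in the sources used here. The authors deposited 7 tables of unnormalized gene counts, of which 0 columns were left out. Groups came from the titles.

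Genes passing edgeR's filterByExpr (minimum 10 per library, 15 in total) were tested within each table with edgeR 4.0.16 in R 4.3.3 (TMM, robust quasi-likelihood fit, Benjamini-Hochberg adjustment over all genes tested, threshold 0.05). A difference between tables was tested as an interaction on libraries joined by gene name. The scripts were tested on simulated data. Alternatives were RLE, library-total and ribosomal protein scaling, DESeq2 1.42.0, no filter, 1 CPM, a replicate block, slopes without 3 h, and leaving out each library. The text names all 7 members, up to 3 genes of a list by adjusted p, the 3 genes most alike (some are not reported here), the targeted gene, and a few marked as chosen later. The members and lists were chosen with earlier results of these data known. No same-numbered libraries were paired by the labels, and their correlations ran from -0.0927 to 0.0277.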

Additional observations from a re-analysis of the deposited data

Results flagged for a closer look

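Only embryoid VE and embryoid EPI, with 6 libraries each, were large enough to be searched for outlying libraries, for each of the 7 genes. Chance flags about 1 in 20 such searches of a gene in a group, and 5 such values were found. In embryoid EPI, replicate 2 stood above the other 5 libraries for Apoa1 (8.22 CPM), Apoa4 (3.8 CPM) and Apob (2.16 CPM). In embryoid VE, replicate 6 stood below the others for Apob (114 CPM), and replicate 2 above them for Apoc2 (0.821 CPM, from 6 counts).

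Effects that differed between 2 tables by a test of the difference were those of Apoa2 (3.81), Apob (5.30) and Apoe (2.17) in the embryoid against the sorted cells, and of Apoe (-0.53) in Virma against Mettl3, all on the log2 scale.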

How the results depend on the processing

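Of the values recomputed, 926 kept their direction and their side of the threshold, 22 newly passed it, 14 no longer did and 56 changed sign. No other member call changed with the replicate block than those given here, where Apoa1 in sorted cells (adjusted p = 0.113) and Apoa2 in embryoid minus sorted (0.0957) were lost; same-numbered libraries correlated at -0.0927 to 0.0277, and 1 of the 6 embryoid pairs correlated best with its own number. Where the cause of a change is not given, the cause was not tested.

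Counts of members called changed as follows. The EPS slope gave 4 without 3 h and 0 to 1 when a library was left out. The PrEdiff slope gave 0 with ribosomal protein scaling and 3 with DESeq2 or without 3 h, when Apoa2 passed. Mettl3 gave 1 with ribosomal protein scaling. The siIgf2bp3 comparison gave 1 with RLE, library totals, ribosomal protein scaling, DESeq2, no filter, 1 CPM or the replicate block, and 0 to 1 when a library was left out. Virma minus Mettl3 gave 0 with ribosomal protein scaling. The induction gave 2 with library totals or ribosomal protein scaling. Sorted cells gave 4 with RLE, library totals or the replicate block, and 5 without the filter, where Apoa2 passed and Apoa1 did not. Embryoid minus sorted gave 4 with DESeq2 and 2 with the replicate block. When a library was left out, Virma minus siIgf2bp3 gave 0 to 1, sorted cells 4 to 5 and embryoid minus sorted 2 to 3. DESeq2 gave no adjusted p for Apoa1 and Apoa4 in the embryoid, and called the other 4.

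Signs turned in these log2 values. With library totals, Apoe in the induction was at 0.035, the EPS slopes of Apob and Apom at -0.072 and -0.017, and the Apoc2 slope difference at -0.0027. With ribosomal protein scaling, EPS slopes were -0.057 (Apoa2), -0.19 (Apob), -0.015 (Apoc2), -0.035 (Apoe) and -0.14 (Apom), and PrEdiff slopes -0.059 (Apoa2), -0.14 (Apoc2) and -0.11 (Apom). That scaling also gave slope differences of -0.0013 (Apoa2) and -0.12 (Apoc2), 0.078 for Apom in Virma minus Mettl3, and 0.19 (Apoe) and 0.045 (Apom) in Virma minus siIgf2bp3. Without 3 h, the Apob slope in EPS was -0.64, and slope differences were -0.22 (Apoa2), 0.61 (Apob), -0.062 (Apoc2), -0.13 (Apoe) and -9.1e-05 (Apom). Apoa4 in embryoid minus sorted, a value that rests on 0 counts in EPI-E, was 0.0088 with RLE, 0.26 with DESeq2, 0.12 with 1 CPM and 0.13 with the replicate block.

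When a library was left out, the Apob slope in EPS ran from -0.25 to 0.15. Slope differences ran from -0.00037 to 0.27 (Apoa2), -0.23 to 0.17 (Apob) and -0.14 to 0.16 (Apoc2). Apoa2 ran from -1.70 to 0.21 in Virma, -0.24 to 0.0049 in Mettl3, -0.17 to 1.06 in siIgf2bp3 and -1.69 to 0.21 in Virma minus Mettl3. Apob in Mettl3 ran from -0.37 to 0.52. In embryoid minus sorted, Apoa4 ran from -0.24 to 1.925 and Apom from -4.42 to 1.27. In Virma minus siIgf2bp3, Apoe ran from -0.50 to 0.039 and Apom from -0.93 to 0.63.

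Counts over all genes that moved by over 1.5 times were 9442 for the EPS slope without 3 h (5180 otherwise), 9138 for the PrEdiff slope with ribosomal protein scaling and 8381 without 3 h (5210), and 2, 528 and 926 for the slope difference with ribosomal protein scaling, DESeq2 and without 3 h (180). Mettl3 gave 270 with ribosomal protein scaling and 247 with DESeq2 (518), siIgf2bp3 1699 without the filter and 1467 with the block (945), and Virma minus Mettl3 4406 with ribosomal protein scaling (2726). When a library was left out, the lowest counts were 3150 for the PrEdiff slope, 89 for the slope difference, 242 for siIgf2bp3 (highest 4936), 1633 for Virma minus Mettl3 and 1854 for Virma minus siIgf2bp3 (3237 otherwise). The lists of other genes were counted with TMM factors alone.

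With ribosomal protein scaling the median of all genes moved from -0.03 to 0.23 in sorted cells, -0.05 to 0.27 in the embryoid, 0.06 to -0.17 and 0.02 to -0.36 for the EPS and PrEdiff slopes, and 0.02 to 0.43 in Virma. Library totals moved it from -0.05 to 0.13 in the induction. Higher calls as a share of all calls went from 48.9% to 61.4% in sorted cells, 47.6% to 60.6% in the embryoid, 49.6% to 0.44% and 55% to 0.0219% for the slopes, 88.9% to 100% for their difference, 45.6% to 86.9% in Virma, 63.5% to 48.5% in Mettl3, 54.8% to 43.8% in embryoid minus sorted, and 44.5% to 90.8% and 39.9% to 85.5% in Virma minus Mettl3 and minus siIgf2bp3. With library totals they went to 57.7% in the induction (from 46.7%), 10.9% and 9.99% for the slopes, 66.8% in Virma, 37.8% in embryoid minus sorted, and 63.7% and 61.5% in Virma minus Mettl3 and minus siIgf2bp3, and with RLE to 33.1% in Virma minus Mettl3.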
